A study of Mus musculus with 6 samples.

Results

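The mitotic kinases, kinetochore and cytokinesis genes are a set of 47 genes whose products carry a cell from mitotic entry to the separation of the daughter cells. They were taken by name, and each was represented by the brightest probe set (highest mean over the 6 arrays) that the platform annotation gives to that gene alone. Such a probe set was found for 46 of the 47, and all 46 passed the filter on low signal, out of 12320 named genes that did. Ccnb1, which encodes cyclin B1, had no probe set of that kind and was not analysed here.

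The arrays hold total RNA of mouse (C57BL/6J) bone marrow cells of the c-Kit+Sca-1+Lin- gate (KSL), where blood stem and early progenitor cells are found. In both groups a 7-day culture on endothelial cells of human umbilical vein (HUVEC) was used, in medium without serum, with a mix of mouse cytokines called m5GF, and KSL cells were then sorted again from it. One group of 3 biological replicates received PBS and the other group of 3 received mD1R, known from the study as a soluble form of the Notch ligand Delta-like 1 that is directed to endothelial cells. The comparison asks how mD1R changed the RNA of cells that still carried the KSL markers.

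Mitosis is driven by Cdk1 bound to A and B type cyclins, together with the Polo and Aurora kinases. Condensins compact the chromosomes, kinetochores built on centromeric chromatin attach them to spindle microtubules, and a checkpoint holds the anaphase promoting complex, a ubiquitin ligase, in check until all are attached. The ligase then destroys securin and cyclins, separase opens the cohesin rings, and a midzone and a contractile ring divide the cell. Most of these genes are transcribed in a wave late in the cell cycle, and in blood stem cells, which divide rarely, the wave marks the cells that are cycling.

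The promoters of such genes often hold a cell cycle homology region (CHR), which is bound by the MuvB complexes with B-Myb, FoxM1 or pocket proteins, and CCAAT boxes, which are bound by NF-Y. RefSeq promoter windows (GRCm38.p6, 250 bases before to 50 bases after an annotated start) were held for 39 of the 47 genes. They were searched on both strands for CHR letters (TTTGAA or TTCGAA) and for CCAAT. The sequences below are the 100 bases just before the start, 5′ to 3′ along the gene, for genes of several steps whose CHR letters lie there, and for Pttg1, whose signal went the other way. Capitals mark CHR and CCAAT matches, and a match on the opposite strand reads as its complement (TTCAAA or ATTGG).
Cdk1 (GRCm38.p6, chr10:69352913-69353012, minus strand): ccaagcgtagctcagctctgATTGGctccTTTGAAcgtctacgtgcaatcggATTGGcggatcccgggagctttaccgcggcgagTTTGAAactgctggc
Ncapg (GRCm38.p6, chr5:45669825-45669924, plus strand): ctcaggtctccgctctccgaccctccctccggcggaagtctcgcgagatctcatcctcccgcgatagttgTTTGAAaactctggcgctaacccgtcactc
Ube2c (GRCm38.p6, chr2:164769829-164769928, plus strand): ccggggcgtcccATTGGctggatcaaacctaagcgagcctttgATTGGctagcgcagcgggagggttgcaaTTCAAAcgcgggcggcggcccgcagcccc
Cdc20 (GRCm38.p6, chr4:118437344-118437443, minus strand): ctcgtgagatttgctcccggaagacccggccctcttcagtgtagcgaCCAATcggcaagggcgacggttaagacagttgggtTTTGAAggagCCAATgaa
Espl1 (GRCm38.p6, chr15:102296193-102296292, plus strand): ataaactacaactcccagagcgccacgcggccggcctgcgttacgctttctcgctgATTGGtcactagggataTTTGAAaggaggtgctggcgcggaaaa
Cdca5 (GRCm38.p6, chr19:6084997-6085096, plus strand): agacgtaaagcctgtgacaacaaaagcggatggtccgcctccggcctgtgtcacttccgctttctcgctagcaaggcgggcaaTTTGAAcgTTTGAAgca
Top2a (GRCm38.p6, chr11:99024190-99024289, minus strand): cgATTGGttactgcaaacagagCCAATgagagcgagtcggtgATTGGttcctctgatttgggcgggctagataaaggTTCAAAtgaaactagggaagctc
Pttg1 (GRCm38.p6, chr11:43425982-43426081, minus strand): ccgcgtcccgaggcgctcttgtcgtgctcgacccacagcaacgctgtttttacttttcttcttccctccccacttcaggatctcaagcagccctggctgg
In these stretches the first base of the CHR match lay 15 bases before the start in Cdk1 (with another 71 before it), 30 in Ncapg, 29 in Ube2c, 18 in Cdc20, 27 in Espl1, 23 in Top2a, and 17 and 9 in Cdca5. The CCAAT matches began 80 and 48 bases before the start in Cdk1, 88 and 57 in Ube2c, 53 and 8 in Cdc20, 44 in Espl1, and 98, 78 and 58 in Top2a. The Pttg1 stretch held neither set of letters.

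CHR letters were present in the windows of 29 of 39 mitotic genes (74.4%), against 21.7% of 27025 genes with a window. Within 50 bases of the start they were present in 26 (66.7%), against 6.12% of all genes. CCAAT was found in 30 (76.9%) against 41.1%, and CHR and CCAAT letters together in 26 (66.7%) against 8.61%. E2F-like letters (any of the words TTGGCGC and TTCCCGC and the words TTCGCGC and TTGCCGC) were found in 11 (28.2%) against 10.9%. Of 25 DNA replication genes with a window, 6 held CHR letters (24%) and 16 held E2F-like letters (64%). The windows of Nusap1, Nuf2, Birc5, Mad2l1 and Pttg1 held none of these letters, and the first 4 of these genes are among those with lower signal described below. A match is a description of the letters and not evidence of binding.

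**Figure D1:**
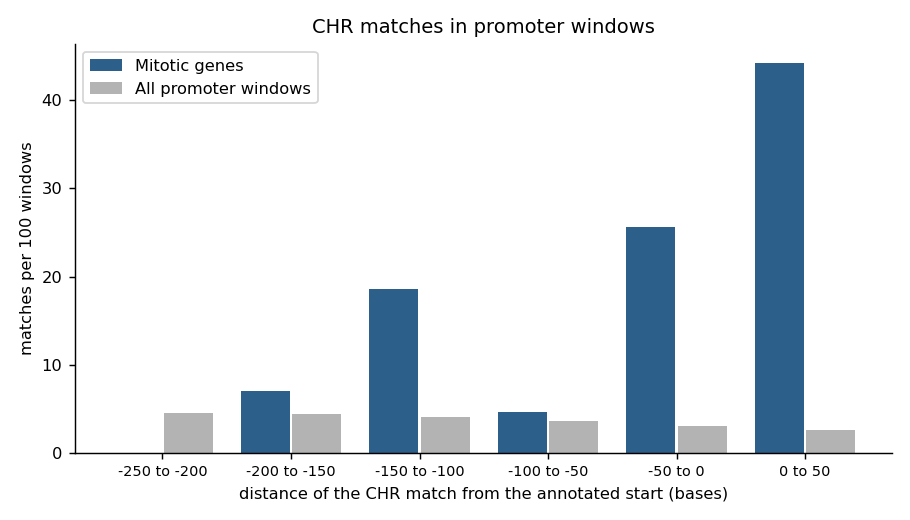
Matches to CHR letters per 100 promoter windows (y axis) by distance of the first base of the match from the annotated start (x axis, bases), for 43 windows of mitotic genes (blue) and all 32851 windows (grey). In mitotic genes the counts were highest in the 50 bases on each side of the start, at 25.6 and 44.2 per 100 windows, where all windows had 3.04 and 2.52.

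With mD1R, 44 of the 46 mitotic genes fell and 0 rose past the threshold (limma, Benjamini-Hochberg adjusted p 0.05 over all 27022 probe sets kept). Among the 12320 named genes 7.09% passed as lower and 8.49% as higher. The mitotic genes were chosen with earlier results of these data known, so these shares are a description and not a test. The signals are log2 values, so a change of -1 is a fall to 50% of the PBS level. Levels of different mitotic genes, read by different probes, are not compared. At limma's unadjusted p under 0.05, 1 mitotic gene, Pttg1, was higher. The median change of the mitotic genes was -1.79, a fold of 3.46, while the median over all named genes was 0.09. The changes of the 45 genes other than Pttg1 lay between -2.62 and -1.18, and all 45 were among the lowest 10% of named genes. The highest mD1R array lay below the lowest PBS array in 44 genes, against 18.1% of named genes, and the median gap between these arrays was 0.998. In bulk RNA fewer cycling cells and less mitotic RNA per cell cannot be told apart.

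The number of calls depended on single arrays. Without PBS replicate 1, 23 of the 46 genes passed as lower, without PBS replicate 2, 18, and without PBS replicate 3, 0. The counts were 39 without mD1R replicate 1, 20 without mD1R replicate 2 and 45 without mD1R replicate 3. Of all 27022 probe sets kept, 1301, 535 and 0 were called in either direction without PBS replicates 1, 2 and 3. Without mD1R replicates 1, 2 and 3 the numbers were 2173, 687 and 5554, against 3413 with all arrays. Without PBS replicate 3 the smallest adjusted p of any probe set was 0.0675. In that setting 45 of the 46 were lower at unadjusted p under 0.05, as were 11.1% of named genes, and the median change was -1.80. There were 16 genes that fell in each of the other 5 leave-one-out settings, namely Cdk1, Ccna2, Ccnb2, Aurka, Nek2, Plk4, Nusap1, Cenpa, Nuf2, Spc24, Aurkb, Birc5, Cdca8, Ube2c, Cdca3 and Prc1. The same count over all named genes was not made.

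**Figure D2:**
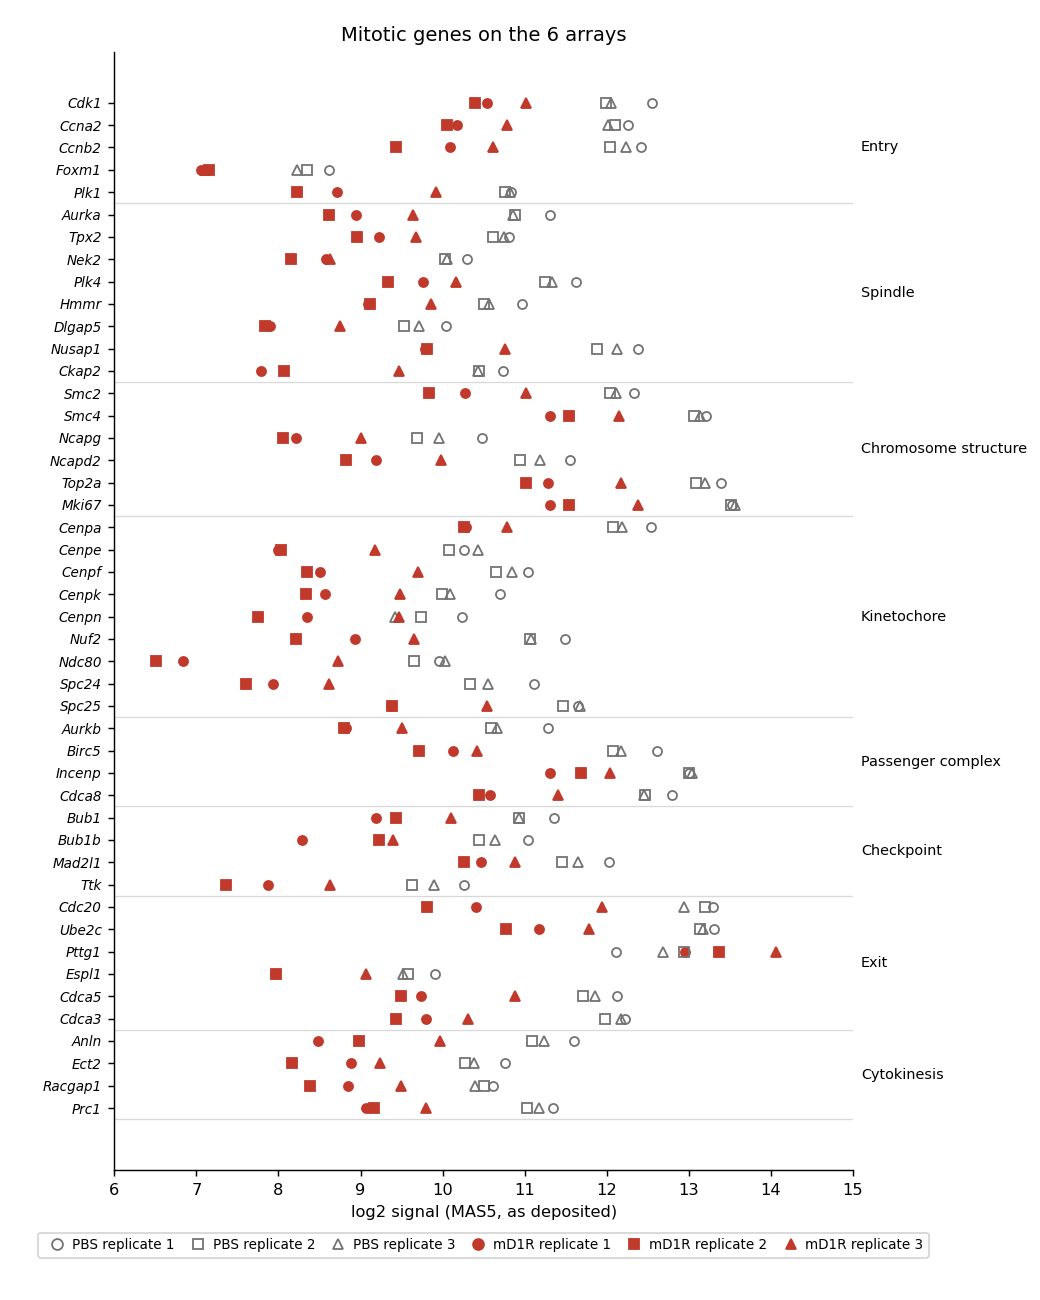
Log2 signal as deposited (x axis) of each of the 46 mitotic genes (rows, grouped by step) on the 3 PBS arrays (open grey) and the 3 mD1R arrays (red), with the marker shape giving the replicate number. In 44 rows the red points all lie left of the grey ones, and in all of the rows that fell except Foxm1 the red triangle of mD1R replicate 3 is the highest red point.

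All 5 measured genes of mitotic entry fell, with a median change of -1.79. Cdk1, the kinase that starts mitosis, had log2 signals of 12.55, 11.99 and 12.06 with PBS and 10.54, 10.39 and 11.02 with mD1R, and fell by 1.55 ± 0.24 (log2, SE, here and below; adjusted p = 0.0118). All 3 mD1R arrays lay at least 0.97 below the lowest PBS array. Ccna2, which encodes cyclin A2, had 12.26, 12.10 and 12.01 with PBS and 10.18, 10.05 and 10.78 with mD1R (a fall of 1.79 ± 0.23). Ccnb2, which encodes cyclin B2 and stands here for the B type cyclins, had 12.42, 12.04 and 12.24 with PBS and 10.09, 9.43 and 10.62 with mD1R and fell by 2.19 ± 0.30. The groups did not overlap for either cyclin gene, with gaps of 1.23 and 1.42. Plk1, the Polo-like kinase of entry and spindle formation, had 10.83, 10.76 and 10.83 with PBS and 8.72, 8.22 and 9.92 with mD1R. It fell by 1.85 ± 0.39, with PBS arrays close together and mD1R arrays far apart. Foxm1, the transcription factor that activates many of the other genes in this set, had 8.61, 8.35 and 8.23 with PBS and 7.05, 7.15 and 7.11 with mD1R and fell by 1.29 ± 0.23. By brightest probe set, Foxm1 was the only gene of the 45 in which mD1R replicate 3 was not the highest mD1R array. In its dimmer kept probe sets replicate 3 was the highest, with mD1R signals of 6.24, 6.08 and 7.09, and of 5.83, 5.01 and 6.71. These probe sets fell by 1.75 ± 0.33 and 2.40 ± 0.43.

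The 8 genes of spindle poles and spindle assembly all fell, by a median of 1.67. Aurka, the Aurora kinase of the spindle poles, had 11.31, 10.88 and 10.86 with PBS and 8.95, 8.62 and 9.64 with mD1R and fell by 1.95 ± 0.28. Nusap1, a microtubule bundling protein, had 12.38, 11.89 and 12.13 with PBS and 9.79, 9.81 and 10.76 with mD1R and fell by 2.01 ± 0.29. The gaps between the groups were 1.22 in Aurka and 1.12 in Nusap1. Ckap2, another spindle protein, had 10.74, 10.45 and 10.43 with PBS and 7.79, 8.06 and 9.47 with mD1R, so that mD1R replicate 3 lay closer to the PBS arrays than to the other mD1R arrays. The smaller falls were those of Tpx2, which activates Aurora A (1.44 ± 0.22), and Hmmr, a spindle pole protein (1.33 ± 0.26). Nek2, a centrosome kinase, fell by 1.68 ± 0.21, Plk4, which starts centriole duplication, by 1.65 ± 0.24, and Dlgap5, a spindle stabilizer, by 1.60 ± 0.30.

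Genes of chromosome structure fell together, with 6 of 6 called and changes between -1.90 and -1.47. Top2a, the topoisomerase that untangles sister chromatids, had 13.39, 13.08 and 13.19 with PBS and 11.29, 11.01 and 12.17 with mD1R and fell by 1.73 ± 0.29. Mki67, which encodes the Ki-67 protein that coats mitotic chromosomes and is widely used as a marker of cycling cells, had 13.52, 13.52 and 13.56 with PBS and 11.30, 11.54 and 12.38 with mD1R and fell by 1.79 ± 0.27. Its PBS arrays were nearly identical, and the groups were separated by 1.14. The condensin core genes Smc2 and Smc4 fell by 1.79 ± 0.29 and 1.47 ± 0.23, and the condensin I subunit genes Ncapg and Ncapd2 by 1.62 ± 0.32 and 1.90 ± 0.31.

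Of the 9 centromere and kinetochore genes, 8 fell and Cenpn did not pass. By brightest probe set, Spc24 and Ndc80 had the 2 largest changes of all 46 genes. Both belong to the Ndc80 complex, the microtubule-binding arm of the kinetochore. Its 4 subunit genes are Spc24, Ndc80, Nuf2 and Spc25. The ranking depends on the probe set. Dimmer kept ones of Cdc20 (-3.61 ± 0.73), Racgap1 (-2.60 ± 0.33) and Top2a (-2.56 ± 0.50) had larger falls than Ndc80. Spc24 had 11.11, 10.34 and 10.56 with PBS and 7.93, 7.60 and 8.62 with mD1R and fell by 2.62 ± 0.32 (adjusted p = 0.00968), with the widest gap between groups of the 45 genes, 1.72. Ndc80 had 9.96, 9.65 and 10.03 with PBS and 6.83, 6.50 and 8.73 with mD1R and fell by 2.53 ± 0.53. Its change was the least precise of the set, and mD1R replicate 3 lay far above the other mD1R arrays. Nuf2 fell by 2.28 ± 0.35 and Spc25 by 1.84 ± 0.32. Cenpa, the histone variant that marks centromeres, had 12.54, 12.08 and 12.18 with PBS and 10.29, 10.26 and 10.79 with mD1R and fell by 1.83 ± 0.22. Cenpe, a kinetochore motor, fell by 1.86 ± 0.33, Cenpf, a large kinetochore protein, by 1.99 ± 0.35, and Cenpk, of the constitutive centromere network, by 1.47 ± 0.34. Cenpk did not pass with no variance trend (adjusted p = 0.0546), a setting in which 42 of the 46 genes passed as lower. Cenpn, which reads the Cenpa nucleosome, had 10.23, 9.74 and 9.42 with PBS and 8.35, 7.75 and 9.47 with mD1R, and its groups overlapped by 0.05 (change -1.27 ± 0.43, adjusted p = 0.0915). Its second probe set was lower by 1.59 ± 0.24 with adjusted p = 0.0118, and the first passed as lower with array weights (adjusted p = 0.0235).

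The chromosomal passenger complex corrects faulty attachments and then moves to the midzone, and all 4 of its genes fell. Birc5, which encodes survivin, had 12.61, 12.07 and 12.18 with PBS and 10.12, 9.71 and 10.41 with mD1R and fell by 2.20 ± 0.24, with the groups 1.66 apart. Aurkb, its kinase, had 11.28, 10.59 and 10.66 with PBS and 8.83, 8.80 and 9.50 with mD1R and fell by 1.80 ± 0.28. The borealin gene Cdca8 fell by 1.77 ± 0.27. The scaffold gene Incenp had 13.00, 13.00 and 13.04 with PBS and 11.31, 11.69 and 12.04 with mD1R and fell by 1.33 ± 0.21, the smallest change of the complex.

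The 4 checkpoint genes fell by a median of 1.62. Mad2l1, which encodes the Mad2 protein that blocks Cdc20, had 12.03, 11.46 and 11.65 with PBS and 10.47, 10.26 and 10.88 with mD1R and fell by 1.18 ± 0.23, the smallest called change of the 46 genes. Ttk, the Mps1 kinase at the head of the checkpoint, had 10.26, 9.63 and 9.89 with PBS and 7.87, 7.36 and 8.63 with mD1R and fell by 1.97 ± 0.34. The kinase gene Bub1 fell by 1.50 ± 0.27. Bub1b, which encodes BubR1, fell by 1.74 ± 0.32. When all 3 kept probe sets of Bub1b were averaged it no longer passed (adjusted p = 0.0563), and its dimmest one differed by 0.30 in the other direction. That probe set had a mean signal of 5.70, near the filter at 5.27.

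In the exit step 5 of 6 genes fell and Pttg1 did not pass. Cdc20, the activator of the anaphase promoting complex, had 13.30, 13.20 and 12.94 with PBS and 10.41, 9.81 and 11.94 with mD1R and fell by 2.43 ± 0.48. The gap between the lowest PBS array and mD1R replicate 3 was 1.01, and the other mD1R arrays lay well below that. Ube2c, the ubiquitin-conjugating enzyme of that complex, had 13.31, 13.14 and 13.18 with PBS and 11.18, 10.77 and 11.78 with mD1R and fell by 1.97 ± 0.26. Cdca3, which promotes destruction of the mitotic inhibitor Wee1, had 12.22, 11.98 and 12.18 with PBS and 9.80, 9.44 and 10.30 with mD1R and fell by 2.28 ± 0.24. Cdca5, which encodes sororin, the protector of cohesion, fell by 1.86 ± 0.35. Espl1, which encodes separase, had 9.90, 9.57 and 9.52 with PBS and 7.95, 7.97 and 9.06 with mD1R and fell by 1.34 ± 0.33 (adjusted p = 0.0356). Espl1 did not pass with the spike-in batch described below as a block (adjusted p = 0.0534) or with no variance trend (adjusted p = 0.0598).

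Pttg1 encodes securin, the inhibitor that binds separase until anaphase, and was the exception. Its signals were 12.12, 12.94 and 12.68 with PBS and 12.95, 13.37 and 14.06 with mD1R. The mD1R arrays were all above the PBS arrays, by 0.01 at the closest point, against 22.1% of named genes whose groups were separated in that direction. The difference of 0.88 ± 0.32 did not pass (adjusted p = 0.113). That probe set is of the s_at type, which can match transcripts of more than 1 gene. The brightest probe sets of Nek2, Plk4, Cdca8, Bub1b and Prc1, which fell, are of this type too. Those of Aurkb, Incenp and Cdc20, which also fell, are of the x_at type, to which the same limit applies. A second Pttg1 probe set, of the a_at type for variants of 1 gene, had 10.29, 10.72 and 10.10 with PBS and 11.11, 11.24 and 11.83 with mD1R, rose by 1.02 ± 0.25 and passed (adjusted p = 0.0380). The third probe set was also higher with mD1R, by 0.85 ± 0.36, without passing (adjusted p = 0.163). With a block for the spike-in batch, the brightest probe set passed as higher, by 1.14 ± 0.19 (adjusted p = 0.0152). Securin and separase RNA, whose proteins form 1 complex, had differences of opposite sign.

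The 4 cytokinesis genes fell, with changes between -2.16 and -1.60. Anln, which encodes the ring protein anillin, had 11.60, 11.09 and 11.24 with PBS and 8.49, 8.98 and 9.97 with mD1R and fell by 2.16 ± 0.36. Prc1, which bundles the midzone microtubules, had 11.34, 11.03 and 11.18 with PBS and 9.07, 9.16 and 9.79 with mD1R and fell by 1.84 ± 0.23. Ect2, the exchange factor that activates RhoA at the cleavage plane, fell by 1.71 ± 0.30, and Racgap1, its centralspindlin partner, by 1.60 ± 0.28. A dimmer kept probe set of Racgap1 fell by 2.60 ± 0.33. The groups did not overlap in any of the 4 genes.

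**Figure D3:**
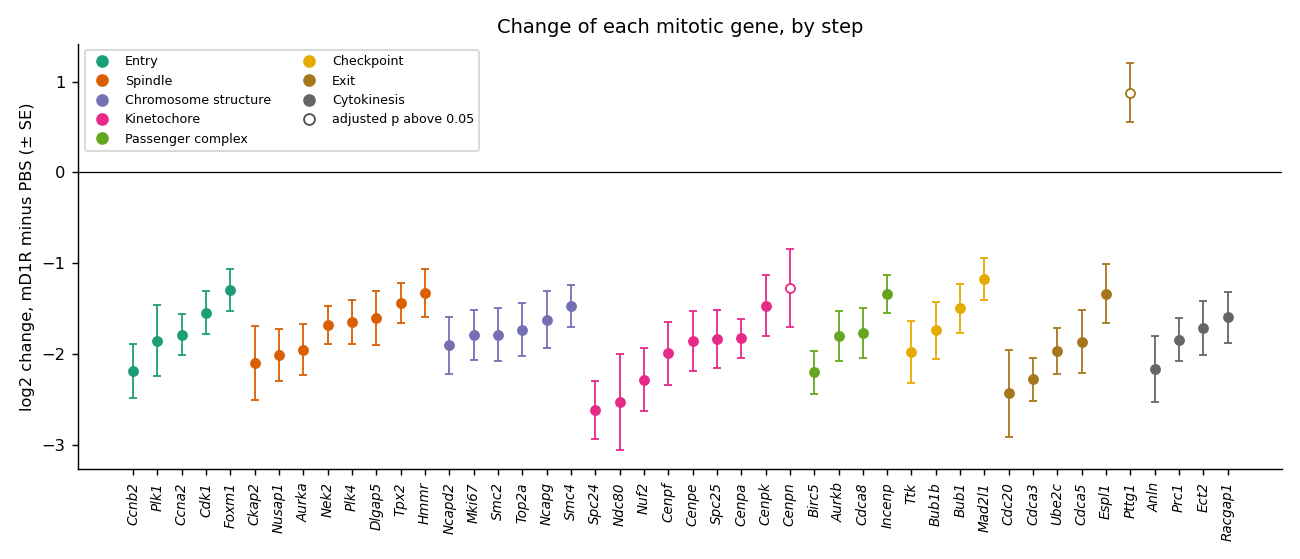
Log2 change with limma's standard error (y axis) of the 46 genes (x axis), coloured by step, with open circles where the adjusted p was above 0.05. The 8 step medians lay between -1.92 and -1.62, and Pttg1 is the single gene above 0.

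The step medians were -1.79 for entry, -1.67 for the spindle, -1.76 for chromosome structure, -1.86 for the kinetochore, -1.79 for the passenger complex, -1.62 for the checkpoint, -1.92 for exit and -1.78 for cytokinesis. When all kept probe sets of a gene were averaged, the checkpoint median was -1.33 and the exit median -1.54, against -1.93 for the kinetochore and for the passenger complex. Differences between steps were not tested.

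The arrays did not move equally. Relative to each gene's PBS mean, the median of the 45 genes other than Pttg1 was -2.02 on mD1R replicate 1, -2.14 on replicate 2 and -1.17 on replicate 3. On replicate 3 the 45 genes had a median of 56.6% of the distance that separated the other 2 mD1R arrays from PBS. The range was from 18.6% in Cenpn to 99.5% in Foxm1, each by its brightest probe set. Both extremes depended on the probe set. The second Cenpn probe set had a PBS mean of 9.38 and 7.67, 7.65 and 8.05 with mD1R. A dimmer Foxm1 probe set had a PBS mean of 8.22 and 6.24, 6.08 and 7.09 with mD1R. Replicate 3 was the highest mD1R array in 44 of the 45 genes, and PBS replicate 1 was the highest PBS array in 40. The median SD was 0.20 over the PBS arrays and 0.55 over the mD1R arrays.

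**Figure D4:**
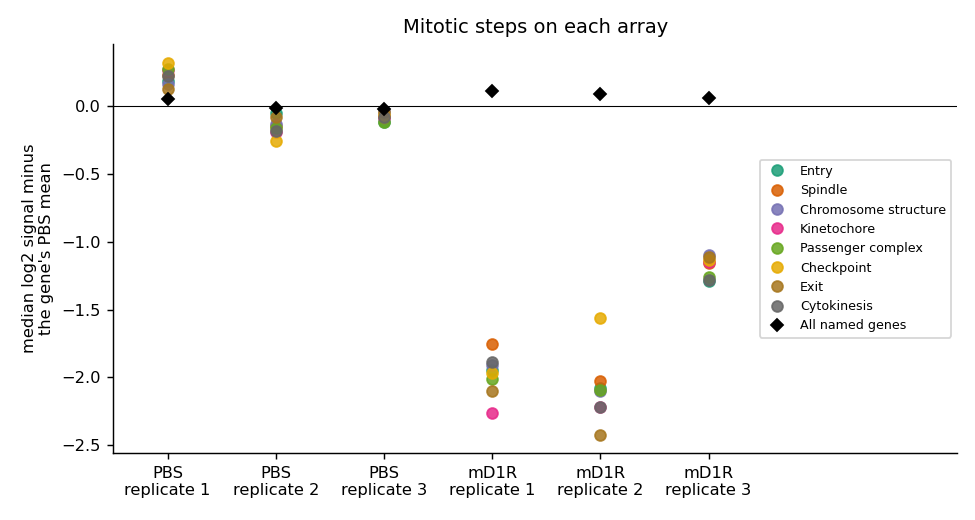
Median over the genes of each step of the log2 signal minus the gene's PBS mean (y axis) on each of the 6 arrays (x axis), coloured by step, with the median over all 12320 named genes as black diamonds. The step medians run from -2.27 (kinetochore) to -1.76 (spindle) on mD1R replicate 1, from -2.42 (exit) to -1.56 (checkpoint) on replicate 2 and from -1.29 (entry) to -1.10 (chromosome structure) on replicate 3, while the diamonds stay within 0.11 of 0.

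The level of the BioB control, set against those of the other spiked controls, divided the arrays into 2 sets, called spike-in batches here. PBS replicate 1 and mD1R replicates 1 and 2 made up the first and PBS replicates 2 and 3 and mD1R replicate 3 the second. The mD1R array with the smaller falls was thus the one in the second set, and the part of the sets in the difference between mD1R replicates was not tested. Within the first batch all 45 genes were lower with mD1R, by 1.50 to 3.34. Within the second all 45 were also lower, with changes from -1.83 to -0.11, and in each gene the second change was smaller than the first. The median over the 46 genes was -2.27 and -1.08 in the 2 batches. Each of these values rests on a single array of 1 group. With the batch as a block 43 genes passed as lower, against 7% of named genes.

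The 46 genes had 106 probe sets, of which 97 passed the filter. Over all probe sets kept, 6.5% passed as lower and 6.13% as higher. Beside the 46 brightest of the mitotic genes there were 51, of which 33 passed as lower, 17 did not pass and 1, of Pttg1, passed as higher. Among the 17 were dim probe sets of Cdca3 (-0.33) and Tpx2 (-0.39), whose brightest probe sets fell by 2.28 and 1.44. When all kept probe sets of a gene were averaged, 44 genes passed as lower.

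Other genes of the pathway gave a background for these values. Of 74 further mitosis genes 70 were measured, and 47 fell and 1 rose (median -1.43). Among those that fell were the midzone kinesin gene Kif23 (-2.0 ± 0.20), the checkpoint recruiter gene Kntc1 (-1.71 ± 0.21), the Cdk1 inhibitory kinase gene Pkmyt1 (-1.80 ± 0.23), the activating phosphatase gene Cdc25a (-1.92 ± 0.26), the chromokinesin gene Kif4 (-1.59 ± 0.22) and Arhgap11a (-1.44 ± 0.21). Cit, which encodes the cytokinetic citron kinase, rose by 0.81 ± 0.19. By subgroup, 8 of 10 mitotic kinesins, 15 of 26 other kinetochore genes, 10 of 15 checkpoint and Cdk1 control genes, 3 of 4 condensin genes and 11 of 15 spindle and cytokinesis genes fell.

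**Figure D5:**
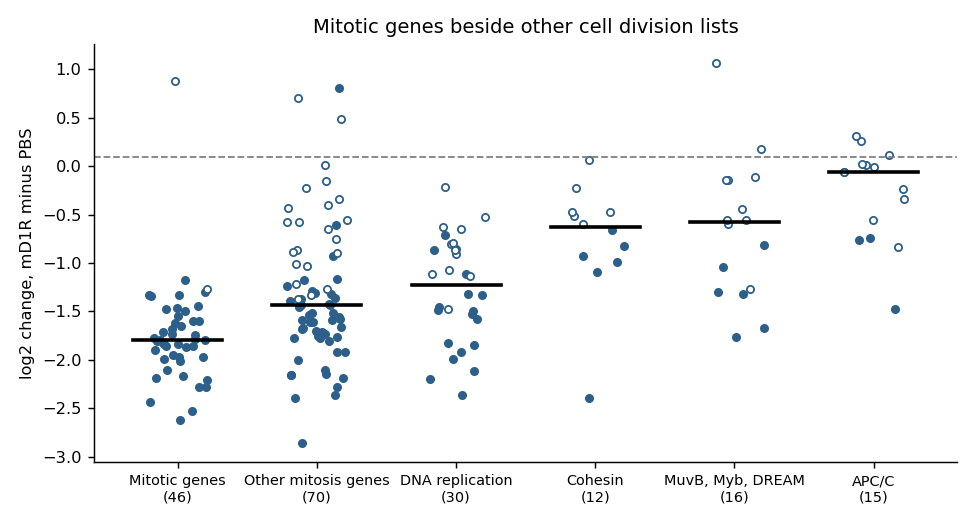
Log2 change (y axis) of each measured gene in 6 lists (x axis, number measured in brackets), filled where the adjusted p was at most 0.05, with the list's median as a bar and the median of all named genes, 0.09, as a dashed line. The median of the mitotic genes was -1.79, of the DNA replication genes -1.23, and of the subunits and regulators of the anaphase promoting complex (APC/C) -0.07.

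Cohesin, the anaphase promoting complex and the regulators of mitotic promoters had medians nearer to 0, which were not tested against those of the mitotic genes. Of 12 cohesin genes 6 fell (median -0.63), namely the acetyltransferase gene Esco2 (-2.40 ± 0.36), Rad21 (-1.10 ± 0.17), Stag2 (-0.82 ± 0.16), Pds5b (-0.99 ± 0.19), Smc1a (-0.93 ± 0.20) and Smc3 (-0.66 ± 0.17). Of 15 subunits and regulators of the anaphase promoting complex 3 fell (median -0.07), the inhibitor gene Fbxo5 (-1.47 ± 0.29), the enzyme gene Ube2s (-0.76 ± 0.16) and Anapc13 (-0.74 ± 0.17). The cofactor genes Cdc20 and Ube2c fell while most subunit genes of their ligase did not pass. Among 16 regulators that bind mitotic promoters 6 fell (median -0.58). These were the NF-Y subunit gene Nfyb (-1.31 ± 0.18), the E2F partner gene Tfdp1 (-1.67 ± 0.24), the pocket protein gene Rbl1 (-1.04 ± 0.19), the MuvB genes Lin9 (-1.30 ± 0.25) and Lin54 (-0.82 ± 0.18), and Mybl2 (-1.77 ± 0.48), which encodes B-Myb. Of 30 measured DNA replication genes 18 fell (median -1.23), among them Tk1 (-2.36 ± 0.25), Rfc4 (-1.45 ± 0.22), Gins1 (-1.49 ± 0.23), Cdc45 (-1.92 ± 0.31), Mcm5 (-1.99 ± 0.33) and Rrm1 (-1.50 ± 0.26). Without PBS replicate 3 none of these lists had a called gene. Without PBS replicate 1, PBS replicate 2 and mD1R replicate 2, 18, 14 and 15 of the further mitosis genes and 5, 4 and 5 of the replication genes fell. In the same settings 2, 1 and 2 of the cohesin genes and 3, 2 and 2 of the promoter regulators fell, and 0 of the genes of the anaphase promoting complex.

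The genes of the gate, of blood stem and progenitor cells and of other cell types were read beside these values, and 7.09% of all named genes passed as lower and 8.49% as higher. Of the gate genes, Kit (1.35 ± 0.49) did not pass, and Ly6a, which encodes Sca-1, was not analysed here. Of surface genes used to subdivide KSL cells, Procr (3.01 ± 0.42) and Cd34 (1.98 ± 0.43) rose and Flt3 (-2.08 ± 0.52) fell, while Slamf1 (1.40 ± 0.43) and Cd48 (0.77 ± 0.37) did not pass. Ptprc, which encodes the general blood cell marker CD45, did not pass either (-0.34 ± 0.21). Lineage-negative cells of the KSL gate were sorted again before extraction, and how far this removed mature cells was not tested. Signals of the other lists were summed on the linear scale over the markers with a probe set of 1 symbol, and no marker was listed at 0. These sums are weighted toward the brightest probe sets. They include markers below the filter (4 endothelial, 1 mast cell and basophil, 2 erythroid and 2 lymphoid), which the counts of tested genes leave out. Mast cell and basophil markers (9 of 12 tested rose, led in signal by Srgn and Mcpt8) summed to 42784 to 47241 with PBS and 86953 to 133465 with mD1R. Macrophage markers (5 of 11 rose, led by Lyz2 and Csf1r) summed to 59236 to 70784 and 105641 to 166896, megakaryocyte markers (2 of 8 rose, led by Pf4 and Ppbp) to 8380 to 21082 and 36245 to 57010, and endothelial markers (1 of 4 rose, led by Pecam1 and Eng) to 1085 to 1194 and 2014 to 3087. Neutrophil markers (1 of 12 fell, led by S100a8 and S100a9) summed to 291543 to 369505 with PBS and to 57972, 158756 and 365274 on mD1R replicates 1, 2 and 3. Replicate 3 was thus within the PBS range for neutrophil markers. For mast cell and basophil, megakaryocyte and endothelial markers it was instead the mD1R array furthest from PBS, with sums of 133465, 57010 and 3087. For macrophage markers its sum, 105641, was the nearest of the mD1R arrays to PBS. Erythroid markers (2 of 7 fell, led by Tfrc and Klf1) summed to 3751 to 10521 and 3367 to 4949, and lymphoid markers (9 of 15 fell and 1 rose, led by Il7r and Nkg7) to 9797 to 18784 and 9233 to 19732. The part of these cell types in the fall of the mitotic genes was not tested.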

How the data were processed

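Per the submitters' processing notes the authors used MAS5 (no version given), and the deposited values are log2 signals for 45101 probe sets, 64 of them controls. Every array had the same linear 2% trimmed mean, 500.0, the mark of scaling array by array, and array medians were 6.08 to 6.43. MAS5 subtracts mismatch signals, which makes dim values noisy, and detection calls were not used here. Of the probe sets other than controls, 34945 had 1 symbol and 932 several by the platform annotation, and the latter named no gene. Names in the lists were matched by symbol.

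Values were tested as deposited with limma 3.58.1 in R 4.3.3 (lmFit, eBayes with a variance trend, two-sided), 3 mD1R against 3 PBS arrays, keeping the 27022 probe sets whose mean log2 signal reached the 40th percentile (5.27). Benjamini-Hochberg adjustment ran over all of these. Errors of changes are limma's standard errors, n = 3 per group. Precision is limited by the number of arrays (median standard error 0.31). The test was also run on simulated arrays with independent noise, and the outcome is not given here. These arrays had no spike-in batches and no difference in spread between groups, so they do not bear on the dependence on single arrays. Arrays of a group were not identical (SD of log2 differences 0.504 to 0.960).

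The members and lists, and the spike-in batches, were chosen with earlier results of these data known. All 47 members are named, and of each other list up to 6 called genes with the smallest p, plus those called against its majority. Of the gate list every tested gene is given, and of each other cell type its 2 brightest markers. Pttg1 was singled out for promoter sequence after its values were seen, as were the other 7 genes shown for their matches. Promoter sequences are RefSeq's. The 1683 pairs of overlapping windows on opposite strands had matching letters. A planned count of a protein motif was not made because no protein sequences were used here.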

Additional observations from a re-analysis of the deposited data

How the results depend on the processing

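The median change of the mitotic genes lay between -2.07 and -1.62 over the settings tried, and in no setting did a called gene change direction. Scaling (centring, quantile), a pseudocount of 32, the filters, robust variance and probe sets with several symbols changed no call among the 46. The number of probe sets past the threshold was 3413, with 2213 under no variance trend and 6508 under array weights. At adjusted p 0.01 it was 108 and at adjusted p 0.1 it was 5737. At 0.01, 4 mitotic, 2 further mitosis, 0 cohesin, 0 anaphase promoting complex, 0 promoter regulator and 1 replication gene fell. Of the 15 genes of the anaphase promoting complex, 1 fell with no variance trend, and 5 with array weights or at adjusted p 0.1. With a block for the spike-in batch, 1 mitotic gene, Pttg1, passed as higher, as it did with the replicate block (adjusted p = 0.0331).

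Leaving out 1 array in turn, the probe sets called numbered 0 to 5554, the mitotic genes that fell 0 to 45, the further mitosis genes 0 to 53, cohesin genes 0 to 6, anaphase promoting complex genes 0 to 5, promoter regulators 0 to 7 and replication genes 0 to 25. The median of the entry genes lay between -2.01 and -1.49. Leaving out an array removes a sample, and without PBS replicate 3, 5853 probe sets were past unadjusted p 0.05.

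Same-numbered PBS and mD1R arrays deviated from their group means with correlations of 0.31, 0.03 and 0.13. Differently numbered arrays were not compared in this way, so these values do not settle whether the numbers pair the arrays. With the replicate block 4619 probe sets were called, against 3413 without it, and 44 mitotic genes fell.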
